A study of Mus musculus with 23 samples.

Results

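Bcan, Cspg5, Ptprz1 and Xylt1 were followed through ribosome-associated and flow-through RNA of the injured mouse spinal cord. They are 3 core proteins of chondroitin sulfate proteoglycans and 1 enzyme that starts the chains. They were taken by name, as the rows whose gene symbol was one of these 4. This choice, like that of the gene lists below, was made with earlier results of these data known. The shares of members and list genes called are therefore not independent of these data. The deposited tables list 9480 gene symbols in either fraction. All 4 genes were among the 9363 of the precipitated fraction (HA) and 3 of them among the 4898 of the flow-through (FT), where Xylt1 was not listed. Each gene had 1 transcript row per table, so its row and its gene sum were the same count.

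The animals were young adult mGFAP-Cre-RiboTag mice, in which Cre driven by a mouse Gfap promoter puts a hemagglutinin (HA) tag on ribosomes. The genotype label of every library reads wild type, so all groups share this background. Every animal had a severe crush injury (SCI) of the cord at thoracic segment 10, and tissue from the middle 3 mm of the lesion was taken at day 14. The groups were SCI only (4 HA and 4 FT libraries), hydrogel CT (3 and 4) and hydrogel GF, a hydrogel with growth factors (3 and 5), with the hydrogel injected at day 2. CT is not explained in the labels, and the column names of the tables call this gel group EmGel. The series title and these column names give different growth factors for hydrogel GF (FGF and EGF against BDNF and NT3). Only the group names are therefore used here. Libraries are called by the number in their title. Numbers run between 9596 and 9935 for SCI only but between 1645 and 1762 for both hydrogels, so the effect of a hydrogel and a difference between these number series cannot be told apart.

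Chondroitin sulfate proteoglycans are proteins that carry long sulfated sugar chains. In the adult spinal cord they build the matrix around neurons, and after injury they gather in the glial scar, where their chains are known to hinder the growth of axons. Bcan (brevican) is a secreted proteoglycan of the lectican family that binds hyaluronan and tenascin-R. Cspg5 (neuroglycan C) is a proteoglycan that spans the membrane and carries an EGF-like domain. Ptprz1 is a receptor protein tyrosine phosphatase whose extracellular part is itself a proteoglycan and binds pleiotrophin. Xylt1 is a xylosyltransferase that attaches the first sugar of the chain to a core protein. Astrocytes and oligodendrocyte progenitors are both known to express such core proteins.

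In the mm10 annotation, the counted Bcan transcript ENSMUST00000090971 lies on the minus strand of chromosome 3, from 87987531 to 88000230, with 14 exons and 3141 bases. The Cspg5 transcript ENSMUST00000035058 lies on the plus strand of chromosome 9, from 110243783 to 110262575, with 5 exons and 3870 bases. The Ptprz1 transcript ENSMUST00000090568 lies on the plus strand of chromosome 6, from 22875502 to 23052916, with 30 exons and 8068 bases. The Xylt1 transcript ENSMUST00000032892 lies on the plus strand of chromosome 7, from 117380979 to 117673580, with 12 exons and 9020 bases. All 4 are protein-coding. Cspg5 overlaps the antisense gene Gm43622 and Xylt1 overlaps Gm45153, neither of which is listed in the tables, and the strand setting of the counts is not stated, so reads from the overlaps may come from either gene.

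Promoters are shown for Bcan and Ptprz1, which were higher in HA together and which the RefSeq promoter table (GRCm38.p6) holds. The 250 bases before the RefSeq start are chr3:88000357-88000606 on the minus strand and chr6:22875252-22875501 on the plus strand, written 5′ to 3′ with matches to CCAAT and GGGCGG on either strand in capitals.
Bcan: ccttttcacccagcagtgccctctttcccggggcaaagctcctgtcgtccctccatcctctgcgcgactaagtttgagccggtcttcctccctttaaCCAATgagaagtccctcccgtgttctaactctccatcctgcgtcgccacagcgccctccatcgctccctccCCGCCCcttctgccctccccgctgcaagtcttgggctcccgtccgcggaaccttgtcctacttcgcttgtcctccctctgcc
Ptprz1: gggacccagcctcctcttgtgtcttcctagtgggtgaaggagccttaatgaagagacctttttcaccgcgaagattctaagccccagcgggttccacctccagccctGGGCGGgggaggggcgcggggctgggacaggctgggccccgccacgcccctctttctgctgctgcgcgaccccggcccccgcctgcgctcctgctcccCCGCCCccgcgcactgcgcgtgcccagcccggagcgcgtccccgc
The Bcan window held 1 CCAAT, at position -153 from the RefSeq start site, and 1 GGGCGG, at -82. The counted Bcan transcript starts further downstream, at 88000230, whereas the counted Ptprz1 transcript starts right after its window, at 22875502. The Ptprz1 window held 2 GGGCGG, at -143 and -45, and no CCAAT. Of 32851 promoter windows of this length, 33.8% held CCAAT and 32.7% held GGGCGG, so these letters were common. The NFI motif TTGGC was found in 41.5% of all windows, the SOX motif ACAAT in 27.7%, the E-box CANNTG in 66.2%, the STAT motif TTCNNNGAA in 7.02% and the AP-1 motif TGANTCA in 6.75%. These 5 were searched on both strands and had no match in either window. The G and C content was 62% for Bcan and 71.6% for Ptprz1.

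HA libraries held 7939015 to 24335808 counts. FT libraries held 2241508 to 5432216 with SCI only but 19600 to 144902 with a hydrogel, so a member often had a few reads or none there. A single locus, Yam1, took 13.8% to 93.1% of the counts of a library, and the unit CPM below is the count per 1e+06 reads of the TMM-scaled library size. HA held astrocyte transcripts as labelled: of 13 astrocyte markers tested, 11 were higher in HA than in FT and none lower, with a summed level of 4552 to 10015 CPM in HA and 229 to 2128 CPM in FT. The flow-through, described as RNA of other cells, thus also held astrocyte transcripts. All 6 oligodendrocyte progenitor markers tested were higher in HA as well, at 293 to 871 CPM summed against 21 to 144 CPM in FT, and Cspg4 was at 0 in every FT library with hydrogel CT among those compared with HA.

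The first comparison asked whether the members were more abundant in the tagged ribosomes than in the rest of the tissue RNA, over the 10 title numbers with a library of each fraction. Bcan, Cspg5 and Ptprz1 were all higher in HA, by log2 differences of 3.49, 2.95 and 2.05, and each was higher in 10 of 10 pairs. All 3 members tested were called (edgeR quasi-likelihood test, adjusted over all genes, threshold 0.05). Of the 4571 genes tested, 867 were called (19%), and 572 were higher in HA (12.5%), with a median log2 difference over all genes of 0.31. Xylt1 could not be compared, being listed in HA alone. The share of all genes that were higher in HA in every pair, or whose fractions did not overlap, is not given here.

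Bcan ranged in HA from 36.0 to 115 CPM with a median of 59.3, and in FT from 0 to 12.5 CPM with a median of 6.68. Every HA library was above every FT library. The means were 67.9 ± 28.7 CPM in HA and 5.46 ± 4.23 CPM in FT (SD, n = 10 each), a log2 difference of 3.49 (SE 0.49, edgeR adjusted p = 2.57e-06). Bcan had 0 counts in 3 of these FT libraries, 9935, 1724 and 1687, and a count of 0 allows up to 6.98, 9.98 and 21.2 CPM there (3 counts, counting error only). Bcan had the largest difference of the 3 members.

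Cspg5 ranged from 34.5 to 260 CPM in HA, with a median of 67.4, and from 0 to 22.0 CPM in FT, with a median of 10.4. The fractions again did not overlap. Its log2 difference was 2.95 (SE 0.45, edgeR adjusted p = 9.93e-06), from means of 97.7 ± 75.3 and 10.9 ± 7.88 CPM (SD, n = 10 each). The wide spread in HA came from library 1687 at 260 CPM and library 1685 at 214 CPM, both hydrogel GF.

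Ptprz1 ranged from 28.7 to 223 CPM in HA, with a median of 83.0, and from 0 to 81.0 CPM in FT, with a median of 18.7. Here the fractions overlapped, since the FT library 1759 stood at 81.0 CPM, above 5 of the 10 HA libraries. The means were 96.4 ± 64.3 and 23.6 ± 23.0 CPM (SD, n = 10 each), and the log2 difference was 2.05 (SE 0.44, edgeR adjusted p = 0.000753). Within each treatment the lowest HA library of Ptprz1 was still above the highest FT library, at 28.7 against 17.5 CPM with SCI only, 90.4 against 81.0 with hydrogel CT and 36.2 against 34.6 with hydrogel GF. The 3 calls were also made on transcript rows, where 19.3% of 4607 rows were called. The higher level in HA moved with the astrocyte and the progenitor markers given above, with oligodendrocyte markers (5 of 11 tested higher and none lower, 966 to 2560 CPM summed in HA and 139 to 1202 CPM in FT), and with the depth of the libraries, and their part in it was not tested. In such bulk RNA, fewer cells of a type and less RNA per cell cannot be told apart.

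**Figure D1:**
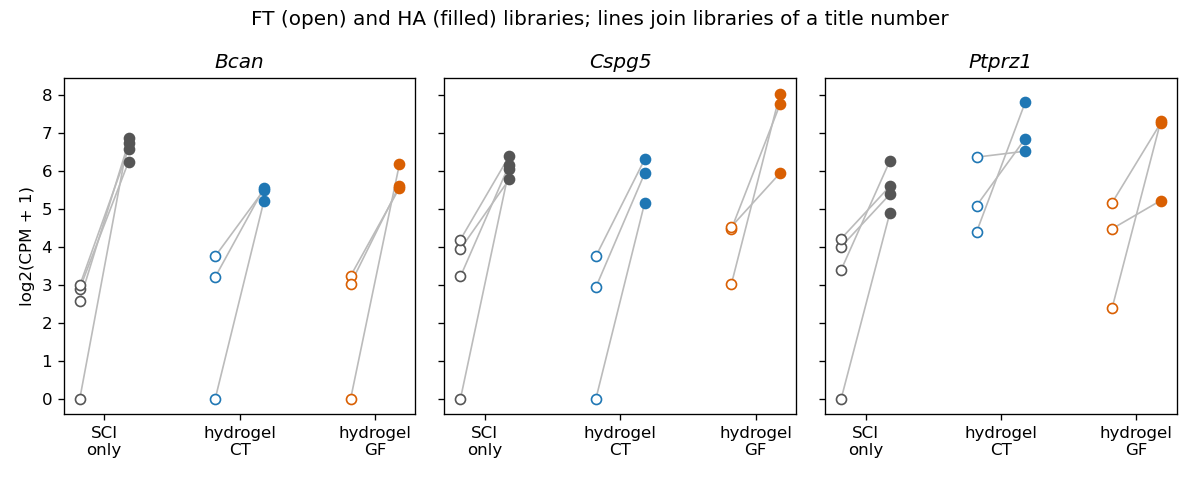
Level of Bcan, Cspg5 and Ptprz1 as log2(CPM + 1) in FT (open points) and HA (filled points) libraries of the 10 title numbers with both fractions, by treatment, with a line joining libraries of the same number. Every line rises from FT to HA, least for Ptprz1 in hydrogel CT library 1759.

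Each treatment was then taken alone, to see where the fraction difference was found. With SCI only, 2 of 3 members were called, against 4% of 4747 genes. Bcan was at 97.3 ± 17.7 CPM in HA and 4.59 ± 3.17 in FT (SD, n = 4 each), a log2 difference of 4.31 (SE 0.72, edgeR adjusted p = 0.000378). Cspg5 was at 67.7 ± 12 against 9.98 ± 7.63 CPM, a log2 difference of 2.68 (SE 0.68, edgeR adjusted p = 0.0191). Ptprz1, at 48.1 ± 20.0 against 10.5 ± 7.77 CPM, had a log2 difference of 2.13 (SE 0.68) and was not called (edgeR adjusted p = 0.0675), although it passed with the title number as a replicate block (0.0220) and with DESeq2 (0.0173). Leaving out number 9596, 9843, 9874 or 9935 ended the call of Cspg5, at adjusted p of 0.0704, 0.118, 0.0648 and 0.114. Leaving out the hydrogel GF number 1685, 1687 or 1732 brought Ptprz1 past the threshold, at 0.0428, 0.0441 and 0.0339.

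With hydrogel CT, 1 of 3 members was called, against 2.65% of genes. Cspg5 was at 57.4 ± 21.7 CPM in HA and 6.37 ± 6.23 in FT (SD, n = 3 each), a log2 difference of 3.04 (SE 0.87, edgeR adjusted p = 0.0483). Bcan was at 41.9 ± 5.19 against 6.89 ± 6.33 CPM, a log2 difference of 2.55 (SE 0.84, edgeR adjusted p = 0.0917), and Ptprz1 at 142 ± 70.5 against 44.6 ± 32.2 CPM, a log2 difference of 1.67 (SE 0.78, edgeR adjusted p = 0.252). The call of Cspg5 was lost without number 1724 (adjusted p = 0.232), 1759 (0.182), 1762 (0.177), 9596 (0.0682), 9843 (0.0789) or 9874 (0.0671), with DESeq2 size factors (0.0976) and with protein-coding genes alone, leaving out Lars2 (0.0527). Bcan passed without number 1732 (0.0469).

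With hydrogel GF, 3 of 3 members were called, against 12.7% of genes. Cspg5 was at 178 ± 104 CPM in HA and 16.7 ± 8.37 in FT (SD, n = 3 each), a log2 difference of 3.34 (SE 0.83, edgeR adjusted p = 0.00729). Bcan was at 54.8 ± 14.0 against 5.18 ± 4.53 CPM, a log2 difference of 3.19 (SE 0.87, edgeR adjusted p = 0.0135). Ptprz1 was at 115 ± 68.2 against 20.0 ± 15.2 CPM, a log2 difference of 2.45 (SE 0.82, edgeR adjusted p = 0.0419). Without number 1687 Bcan (adjusted p = 0.0667) and Cspg5 (0.0633) were not called, and without 1732 neither were Bcan (0.0573) and Ptprz1 (0.0821). Ptprz1 was also lost without 1685 (0.222), 9596 (0.0552), 9843 (0.0554) or 9874 (0.0508), with DESeq2 (0.123) and with DESeq2 size factors (0.167).

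**Figure D2:**
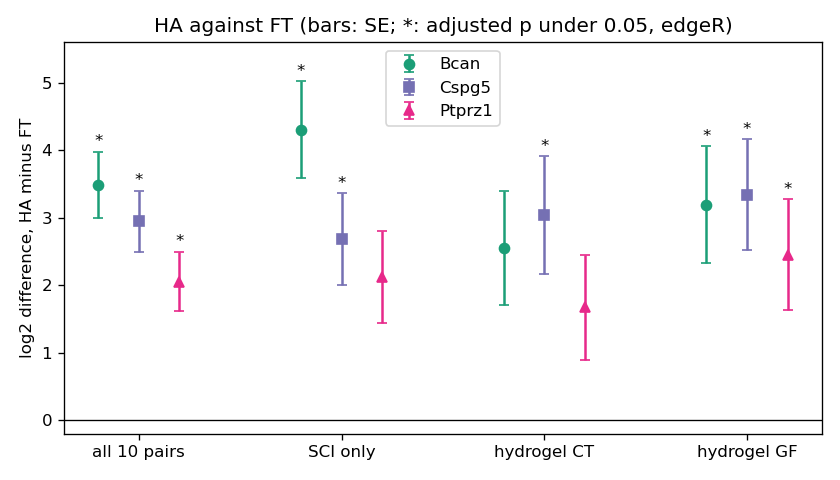
Log2 difference of HA minus FT for Bcan, Cspg5 and Ptprz1 over all 10 pairs and within each treatment, with bars of 1 SE and a star where the edgeR adjusted p is under 0.05. All 12 differences are above 0, and the error bars are wider within a treatment than over all pairs.

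Whether the fraction difference itself changed with treatment was tested directly. None of the 3 members was called in any of the 3 comparisons of treatments by edgeR or DESeq2, and none had an unadjusted p under 0.05. The 9 differences of log2 differences ran from -1.76 (Bcan, hydrogel CT minus SCI only) to 0.78 (Ptprz1, hydrogel GF minus hydrogel CT), with SEs of 1.01 to 1.19 and edgeR adjusted p of 0.672 to 0.982. These p-values do not show that the fraction difference was alike in the treatments. Over all genes, 0% were called for hydrogel CT against SCI only (261 at an unadjusted p under 0.05, and 1 by DESeq2). For hydrogel GF against SCI only, 0.0421% were called (653 at an unadjusted p under 0.05, and 84 by DESeq2). Between the hydrogels, 0% were called (579 at an unadjusted p under 0.05, and 42 by DESeq2).

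The rest of the proteoglycan pathway was compared between HA and FT through 6 lists. Of 12 core proteins, 7 were tested, and 5 were higher in HA and none lower. The median log2 difference of the 7 was 2.05, the value of Ptprz1 itself, against 0.31 over all genes tested. App, at 0.83 (edgeR adjusted p = 0.127), and Bgn, at 0.75 (0.263), were not called. Of the 5 called, 3 are the members themselves, so neither this count nor the median is separate from the results above. The others were Cspg4 (NG2, a proteoglycan of progenitors and pericytes), at 2.21 (SE 0.77, edgeR adjusted p = 0.0388), and Ncan (neurocan, a secreted lectican), at 1.63 (SE 0.49, edgeR adjusted p = 0.0164). The call of Cspg4 was lost under 6 of 18 alternatives, among them the SCI only libraries alone (log2 difference 0.52, adjusted p = 0.696) and libraries without number 1687 (0.0539), 1724 (0.0724), 1759 (0.0924) or 9935 (0.0541). That of Ncan was lost under 4 of 18, among them DESeq2 (0.0528) and libraries without number 1724 (0.0704).

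Of 9 tenascins, link proteins and hyaluronan synthases, 2 were tested. Tnr (tenascin-R, a partner of Bcan) was higher in HA at 2.08 (SE 0.64, edgeR adjusted p = 0.0182), and this call was lost under 4 of 18 alternatives, 2 of them without number 9596 (0.0551) or 9843 (0.0534). Hapln4, a link protein of perineuronal nets, was lower at -3.92 (SE 1.06, edgeR adjusted p = 0.00699). Of 18 genes of linkage and chain synthesis, the list that holds Xylt1, 4 were tested and 1 was higher. This was Papss2, which makes the sulfate donor, at 3.23 (SE 0.49, edgeR adjusted p = 8.70e-06). Neither of the 2 chondroitin sulfotransferases tested, of 10 listed, passed the edgeR test at an adjusted p under 0.05, with Ust at 1.70 (adjusted p = 0.0874) and Chst11 at 1.51 (0.0938).

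Among 13 receptors, ligands and partners, 5 were tested, 2 higher and 1 lower. Sdc3, a syndecan, was higher in HA at 1.63 (SE 0.37, edgeR adjusted p = 0.00123), a call lost in the SCI only libraries alone (0.0599). Ptn (pleiotrophin, the ligand of Ptprz1) was higher at 1.55 (SE 0.57, edgeR adjusted p = 0.0489). The call of Ptn was lost under 12 of 18 alternatives, without number 1724 (0.152), 1759 (0.106), 1762 (0.0610), 9596 (0.105), 9843 (0.0710), 9874 (0.1005) or 9935 (0.0768) among them. Rtn4rl1, a Nogo receptor homologue that binds the chains, was lower at -4.02 (SE 0.99, edgeR adjusted p = 0.00309). No tested gene of cleavage and breakdown was called higher in HA. The lysosomal enzyme Gusb was lower, at -3.71 (SE 0.73, edgeR adjusted p = 0.000277). Beside these lower genes, 8 of 9 microglia and macrophage markers and 8 of 10 neuron markers tested were lower in HA, and their part was not tested.

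**Figure D3:**
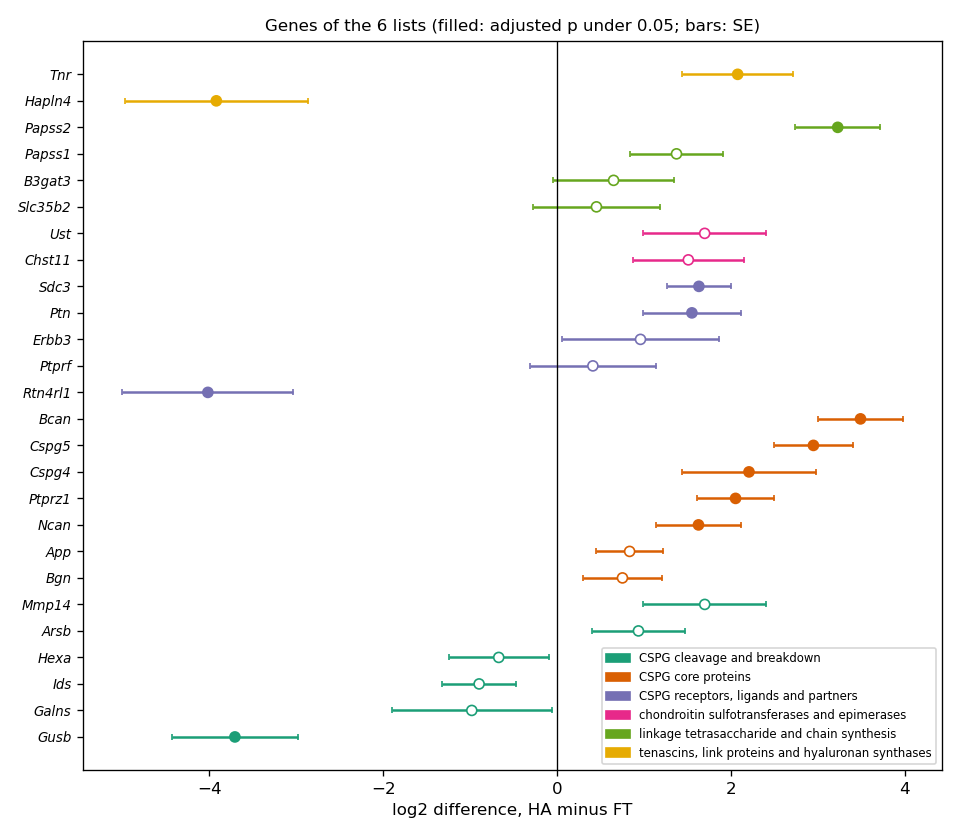
Log2 difference of HA minus FT for genes of the 6 pathway lists that were tested and are reported, coloured by list, with bars of 1 SE and filled points where the edgeR adjusted p is under 0.05. The core proteins all lie to the right of 0, led by Bcan at 3.49, whereas Gusb of the breakdown list lies to the left.

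The next comparisons asked whether the members differed between treatments within the precipitated RNA, where all 4 passed the filter on low counts. By edgeR none of the 4 was called in any pair of treatments. For hydrogel CT against SCI only, 3 of 4 had an unadjusted p under 0.05, as had 843 of all 6654 genes. DESeq2 called 1 member (Xylt1) among 244 genes, and edgeR called 0.195% of genes. For hydrogel GF against SCI only, 3 of 4 had an unadjusted p under 0.05, as had 1396 of all genes. DESeq2 again called 1 member (Xylt1), among 715 genes, and edgeR called 0.436% of genes. Between the hydrogels, 1 member and 886 of all genes had an unadjusted p under 0.05, DESeq2 called no member among 293 genes, and edgeR called 0.0902% of genes. Overlap of libraries between treatments is described below for the members alone, without the share of all genes that did not overlap. On simulated data, edgeR recovered 1.14% of log2 changes of 2 and 1.11% of 3 for hydrogel GF against SCI only in HA. Between the fractions it recovered 41.4% and 80.2%. A missing call within HA therefore does not show that levels were alike.

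Bcan had 771, 187, 440 and 209 counts in the SCI only libraries 9596, 9843, 9874 and 9935. These were 57.6, 36.0, 50.4 and 58.2 CPM on the scale of the HA libraries. Hydrogel CT libraries 1724, 1759 and 1762 had 910, 1163 and 1974 counts, or 20.5, 24.2 and 25.3 CPM. Hydrogel GF libraries 1685, 1687 and 1732 had 417, 141 and 307 counts, or 25.3, 35.9 and 26.3 CPM. On the CPM scale all SCI only libraries were thus above all hydrogel libraries, with library 9843 at 36.0 CPM next to 1687 at 35.9 CPM. The log2 difference was -1.11 (SE 0.52, edgeR adjusted p = 0.388) for hydrogel CT against SCI only and -0.79 (SE 0.52, edgeR adjusted p = 0.399) for hydrogel GF against SCI only. Between the hydrogels it was 0.32 (SE 0.55, edgeR adjusted p = 0.828).

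Ptprz1 had 296, 119, 354 and 52 counts in the same SCI only libraries, or 22.1, 22.9, 40.5 and 14.5 CPM. With hydrogel CT it had 5632, 2385 and 4934 counts, or 127, 49.7 and 63.3 CPM. With hydrogel GF it had 1429, 72 and 975 counts, or 86.9, 18.3 and 83.5 CPM. The hydrogel CT libraries were all above SCI only, while hydrogel GF overlapped it through library 1687 at 18.3 CPM. The log2 difference was 1.67 (SE 0.61, edgeR adjusted p = 0.269) for hydrogel CT against SCI only, 1.33 (SE 0.61, edgeR adjusted p = 0.219) for hydrogel GF against SCI only and -0.34 (SE 0.65, edgeR adjusted p = 0.851) between the hydrogels. The last of these changed sign without library 1687 (0.09) or 1724 (0.14).

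Cspg5 had 391, 177, 386 and 117 counts with SCI only, or 29.2, 34.1, 44.2 and 32.6 CPM. With hydrogel CT it had 1516, 2051 and 1491 counts, or 34.1, 42.8 and 19.1 CPM, and these groups overlapped. With hydrogel GF it had 1951, 517 and 387 counts, or 119, 132 and 33.2 CPM. Libraries 1685 and 1687 were above every other HA library, and library 1732 of the same group lay among the SCI only libraries. The log2 difference was 1.43 (SE 0.56, edgeR adjusted p = 0.168) for hydrogel GF against SCI only, 1.56 (SE 0.61, edgeR adjusted p = 0.282) between the hydrogels and -0.13 (SE 0.56, edgeR adjusted p = 0.946) for hydrogel CT against SCI only, which was 0.15 without library 1762.

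Xylt1 had the fewest counts of the members. There were 38, 24, 10 and 7 counts with SCI only, or 2.84, 4.62, 1.15 and 1.95 CPM, and 1, 19 and 20 counts with hydrogel CT, or 0.0225, 0.396 and 0.257 CPM. Hydrogel GF libraries had 0, 1 and 0 counts, or 0, 0.255 and 0 CPM, where 0 counts allow up to 0.182 and 0.257 CPM in libraries 1685 and 1732. On this scale all SCI only libraries were above all hydrogel libraries. Summed over libraries, 79 counts with SCI only against 40 with hydrogel CT gave a ratio of CPM of 10.9 (95% counting interval 7.35 to 16.3, exact binomial). The ratio of SCI only to hydrogel GF, with 1 count, was 81.9 (14.3 to 3276). These intervals cover counting error only, and reads of amplified cDNA are not independent molecules.

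Xylt1 entered the test by a filter on counts per total library, at 0.838 per 1e+06 counts, which 2 SCI only and 2 hydrogel CT libraries reached and no hydrogel GF library did. Its test against hydrogel GF thus rests on a gene kept through other groups. The fitted log2 difference of Xylt1 was -3.52 (SE 1.57) for hydrogel CT against SCI only and was not called by edgeR (adjusted p = 0.367), but was by DESeq2 (0.0449). For hydrogel GF against SCI only it was -5.65 (SE 1.97), a value that depends on the prior count, and again was not called by edgeR (adjusted p = 0.138) but was by DESeq2 (0.00687). Without 1 library at a time this value ran from -9.02 to -4.82 (edgeR adjusted p 0.110 to 0.252). The authors' deposited table gives -5.65 with a false discovery rate of 0.0553 for the same groups, and -3.34 with 0.214 for hydrogel CT against SCI only. Between the hydrogels the fitted value was -2.13 (SE 1.89, edgeR adjusted p = 0.648).

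**Figure D4:**
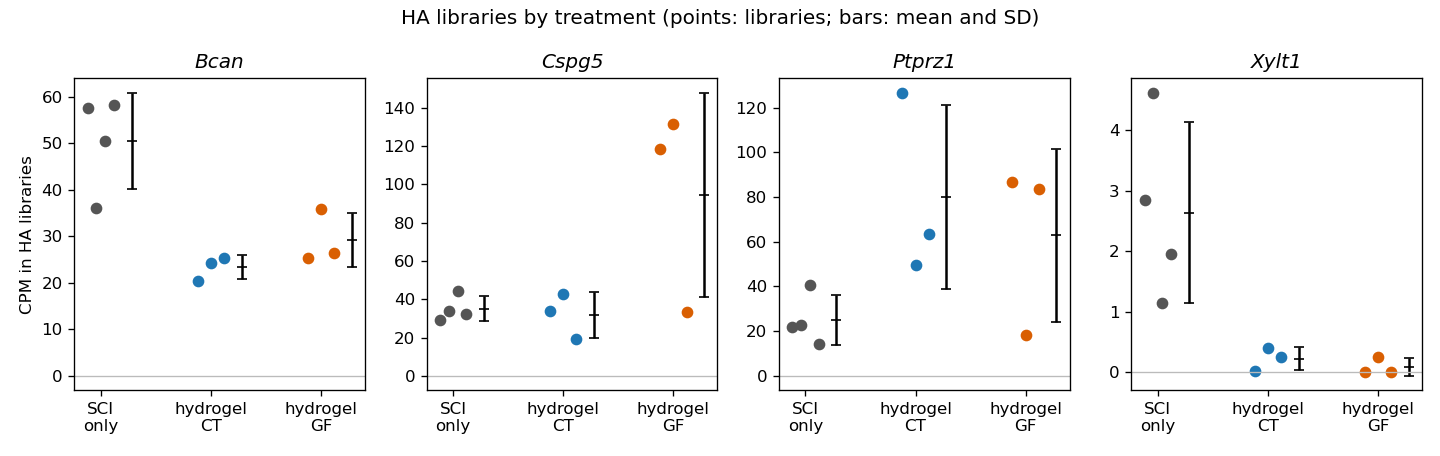
CPM of Bcan, Cspg5, Ptprz1 and Xylt1 in each HA library by treatment (points), with the mean and SD of the group beside them and a scale of its own for each gene. On this TMM scale Bcan and Xylt1 are highest with SCI only and Ptprz1 is higher with hydrogel CT. Cspg5 has 2 high hydrogel GF libraries. On total counts Bcan and Cspg5 are higher with hydrogel CT than with SCI only, where the protein-coding share of counts is higher too.

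Of 38 other genes of the 6 pathway lists tested in HA, edgeR called none in any pair of treatments, with 4, 7 and 5 at an unadjusted p under 0.05 for hydrogel CT and hydrogel GF against SCI only and between the hydrogels, beside 843, 1396 and 886 of all 6654 genes. Papss2 came nearest, with a log2 difference of 2.42 (edgeR adjusted p = 0.0818) for hydrogel GF against SCI only and 2.62 (edgeR adjusted p = 0.123) for hydrogel CT against SCI only.

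Marker sums and depth differed between these groups too. On the scale of the HA libraries the astrocyte markers (16 of 17 listed) summed to 2274 to 3273 CPM with SCI only, 2787 to 5564 with hydrogel CT and 3563 to 4690 with hydrogel GF. The progenitor markers (9 of 12 listed) summed to 377 to 472, 180 to 281 and 315 to 495 CPM in the same order. Protein-coding counts were 202299 to 780502 with SCI only, 2846894 to 5800354 with hydrogel CT and 282734 to 1523813 with hydrogel GF. Their part in the members' values was not tested.

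The direction for Bcan and the overlap for Cspg5 depended on the scaling, which was examined after the values were seen. Per 1e+06 of all counts, Yam1 included and without TMM, Bcan was at 9.30 to 38.7 with SCI only, 84.0 to 157 with hydrogel CT and 17.8 to 39.7 with hydrogel GF. On that scale hydrogel CT was thus above SCI only, the reverse of the order in CPM. In HA, Yam1 took 87.8% to 93.1% of counts with SCI only, 40.0% to 57.6% with hydrogel CT and 67.6% to 75.7% with hydrogel GF. Protein-coding counts were 0.900% to 3.92%, 26.3% to 46.1% and 3.56% to 14.5% in the same order. A value per all counts carries these shares, so the 2 scales do not measure a gene alike. Per 1e+06 of all counts, Xylt1 overlapped between SCI only (0.311 to 1.91) and hydrogel CT (0.0924 to 1.795). Cspg5 was at 5.20 to 19.6 with SCI only, 118 to 194 with hydrogel CT and 34.3 to 186 with hydrogel GF. Both hydrogels were thus above SCI only for Cspg5 on that scale. Cspg5 overlapped between SCI only (5.01 to 7.53) and hydrogel CT (2.57 to 6.34) per 10000 protein-coding counts. Per 10000 protein-coding counts, Bcan was at 7.20 to 10.3 with SCI only, 3.20 to 3.60 with hydrogel CT and 2.74 to 4.99 with hydrogel GF, the order seen in CPM. Ptprz1 was higher with hydrogel CT than with SCI only in every library per 10000 protein-coding counts, at 7.37 to 19.8 against 2.57 to 6.91. It was higher per 1e+06 of all counts too, but the protein-coding share was itself higher with hydrogel CT. The order on that scale is thus not a separate check.

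Per kilobase of the annotated transcript, the order of the members differed between treatments. Setting genes side by side in this way assumes even coverage along each transcript, which was not examined. With SCI only the level was 16.1 ± 3.29 CPM per kilobase for Bcan, 9.05 ± 1.67 for Cspg5, 3.10 ± 1.37 for Ptprz1 and 0.292 ± 0.165 for Xylt1 (SD, n = 4). No neighbours in this order overlapped, although the lowest Bcan library, at 11.5, was close to the highest Cspg5 library, at 11.4. With hydrogel CT they were 7.43 ± 0.811, 8.27 ± 3.09, 9.90 ± 5.09 and 0.0250 ± 0.0209 (SD, n = 3), and the libraries of Bcan, Cspg5 and Ptprz1 overlapped. With hydrogel GF they were 9.29 ± 1.86, 24.4 ± 13.8, 7.80 ± 4.79 and 0.00941 ± 0.0163 (SD, n = 3), again with overlap among the core proteins.

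The ratio of members within a library needs no library scaling. Bcan had 2.60, 1.57, 1.24 and 4.02 counts per count of Ptprz1 in the SCI only libraries 9596, 9843, 9874 and 9935. The ratio was 0.162, 0.488 and 0.400 in hydrogel CT libraries 1724, 1759 and 1762. In hydrogel GF libraries 1685, 1687 and 1732 it was 0.292, 1.96 and 0.315. Hydrogel CT did not overlap SCI only (mean log2 ratio lower by 2.75, exact permutation p = 0.0571, n = 3 and 4), while hydrogel GF did through library 1687 (lower by 1.91, exact permutation p = 0.171). The ratio of Cspg5 to Ptprz1 also did not overlap between hydrogel CT and SCI only (log2 difference -1.85, exact permutation p = 0.0571), nor did that of Bcan to Cspg5 between hydrogel GF and SCI only (-2.0, exact permutation p = 0.0571). These ratios were chosen after the values were seen. The two-sided test cannot go below 0.0571 with 4 against 3 libraries or 0.1 with 3 against 3, and the lowest p adjusted over the 9 comparisons was 0.171.

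**Figure D5:**
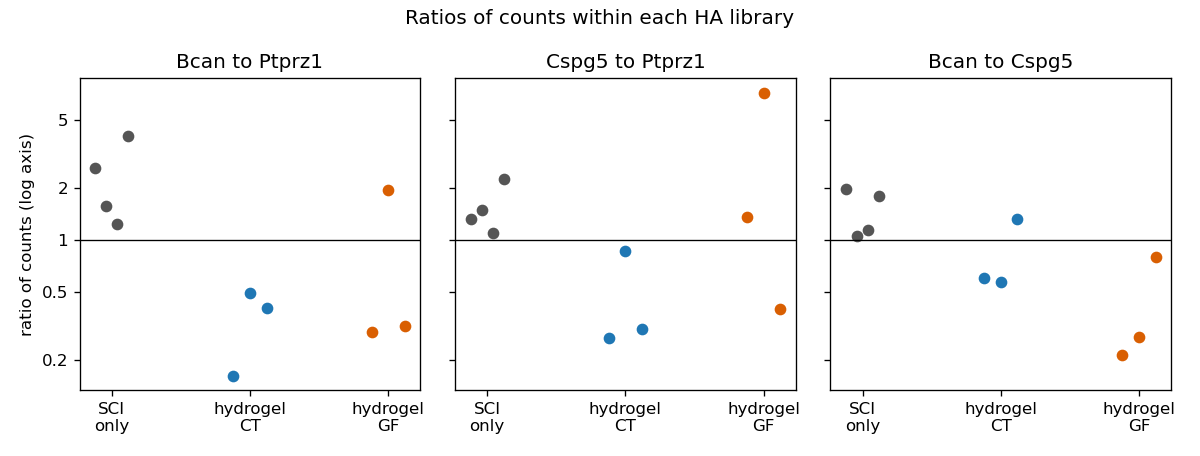
Ratio of counts of 1 member to another within each HA library, on a log axis, by treatment, with a line at 1. The ratio of Bcan to Ptprz1 is above 1 in all 4 SCI only libraries and below 1 in all hydrogel libraries except 1687.

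On the TMM scale Bcan and Ptprz1 ran in opposite directions across the 10 HA libraries (Pearson r = -0.87 of log2 CPM). Bcan and Cspg5 had r = -0.0014 and Cspg5 and Ptprz1 r = -0.13 there. Over all 20 libraries the same pairs had r of 0.64, 0.73 and 0.65, values that hold the shared difference between fractions. All are descriptions over libraries that share treatments and depth.

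In the flow-through, Ptprz1 was the only member with enough counts to be tested. It had 48, 19, 11 and 0 counts in the SCI only libraries 9596, 9843, 9874 and 9935, or 29.8, 38.0, 21.9 and 0 CPM on the scale of the FT libraries. Hydrogel CT libraries 1683, 1724, 1759 and 1762 had 10, 6, 39 and 8 counts, or 231, 31.3, 104 and 53.8 CPM. Hydrogel GF libraries 1645, 1685, 1687, 1729 and 1732 had 1, 1, 3, 19 and 58 counts, or 32.7, 7.13, 47.9, 226 and 68.8 CPM. All 3 groups overlapped, and values above 200 CPM rest on 10 and 19 counts.

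The log2 difference of Ptprz1 in FT was 1.95 (SE 0.82, edgeR adjusted p = 0.199) for hydrogel CT against SCI only. It was not called by edgeR, but was by DESeq2 (0.0377) and with the compared groups alone (0.0288), and edgeR called 3.28% of the 610 genes tested. For hydrogel GF against SCI only it was 1.66 (SE 0.80, edgeR adjusted p = 0.252), called by DESeq2 (0.0458) and not by edgeR, which called 3.77% of genes. Between the hydrogels it was -0.29 (SE 0.80, edgeR adjusted p = 0.965), where edgeR called 0% of genes (23 at an unadjusted p under 0.05, and 0 by DESeq2). This last value changed sign without number 1683 (0.20) or 1685 (0.04).

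Bcan and Cspg5 had too few FT counts to be tested. Bcan had 16, 7, 8 and 0 counts in the SCI only libraries in the order above, 3, 0, 6 and 2 with hydrogel CT and 0, 2, 0, 2 and 12 with hydrogel GF. Cspg5 had 46, 9, 20 and 0 counts, then 2, 2, 6 and 0, then 0, 5, 1, 0 and 37. Differences between treatments were not detectable at this depth: a count of 0 in library 1645, for example, allows up to 98.2 CPM of either gene.

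The genes most like each member over the 20 libraries were, by Pearson's r of log2 CPM among 4571 genes, Crip2 (0.90), Chchd10 (0.89) and Sel1l3 (0.89) for Bcan. For Cspg5 they were Zc3h13 (0.92), Hdgf (0.89) and Sel1l3 (0.88), and for Ptprz1 Chmp5 (0.90), Hsbp1 (0.87) and Mib1 (0.87). Sel1l3 was thus near both Bcan and Cspg5. Within the 10 HA libraries alone these values ranged more widely, from 0.02 for Bcan with Sel1l3 to 0.76 for Ptprz1 with Hsbp1, so the likeness over 20 libraries holds the difference between fractions. Xylt1 was outside this comparison.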

How the data were processed

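RNA-seq was analysed for 10 HA and 13 FT libraries (low-input cDNA amplification, paired-end libraries, per the labels' protocols). CASAVA 1.8.2, edgeR and mm10 are named in the submitters' processing notes; the sources used here do not give the aligner, the counter, its strand setting or the annotation release. The authors deposited whole-number read counts per Ensembl transcript, 10389 rows for HA and 5001 for FT. The lowest row total was 10 in HA and 11 in FT. Their log2 fold changes and p-values with false discovery rates are per the file headers, and are quoted only where the authors' deposited table is named. A further 45 columns of per-sample values were not used. Rows without a symbol (136 in HA, 35 in FT, at most 0.319% of a library's counts) were left out.

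The members and gene lists were chosen with earlier results of these data known. Counts were summed per symbol and tested with edgeR 4.0.16 in R 4.3.3 (quasi-likelihood, TMM, filterByExpr with a minimum count of 10, two-sided), adjusted by Benjamini-Hochberg over all genes tested, with a threshold of 0.05. HA against FT used 20 libraries with terms for treatment and fraction; within-treatment tests used 6 group means; treatments were tested in each fraction separately. The filter for HA against FT first used the 6 groups and was then set by the fitted design, a change made after results were seen; both are reported. Log2 CPM used a prior count of 2. DESeq2 1.42.0, other scaling and filters, left-out libraries and a replicate block were the alternatives. Named genes were the members, list genes that passed in a comparison (at most 6 per list), and the 3 genes most like each member. App, Bgn, Ust and Chst11 are also named, though not called. Positions come from GENCODE M21. The result of 1 gene of the breakdown list is not reported here.

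A shared title number was taken to mark the same tissue, because the series' design text takes both fractions from the same samples. Same-number libraries had correlations of deviations of 0.000147 to 0.0810, and 0 of 10 exceeded 0.1. No label says that a title number is a separate animal, so the spread behind each p-value may be technical. No library was a copy of another of its group, since a chi-square test over genes gave at least 4.61 per degree of freedom for every such pair. Pairs of libraries from different groups were not compared. The test scripts were tested on simulated data. There the edgeR test had far less power for treatments within HA than for the fractions, so the lack of a call within HA does not show that levels were alike.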

Additional observations from a re-analysis of the deposited data

Results flagged for a closer look

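Ptprz1 stood at 226 CPM in FT library 1729 (hydrogel GF), far from the other 4 libraries of its group, of which the nearest was at 68.8 CPM. The value rests on 19 counts. Of 13 groups of libraries tested for a member, this was the only one with such an outlying library, and chance flags about 1 in 20 groups.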

How the results depend on the processing

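Higher levels of Bcan, Cspg5 and Ptprz1 in HA over all pairs kept direction and call under 18 alternatives each, at 3.11 to 4.10, 2.49 to 3.07 and 1.57 to 2.34 (highest edgeR or DESeq2 adjusted p 0.0345). Among these, the SCI only libraries alone (421 genes called) were chosen after seeing the data. The filter by group size was run first, and the filter by fitted design used for the values above was set after its results were seen. DESeq2 size factors moved the median of all genes from 0.31 to -0.02. Most member counts in hydrogel FT libraries were under 20. The cause of the changes below was not tested.

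With DESeq2, 364 genes were called between fractions for SCI only, 201 for hydrogel CT, and 1, 84 and 42 for the differences hydrogel CT minus SCI only, hydrogel GF minus SCI only and hydrogel GF minus hydrogel CT. Within HA it called 244, 715 and 293 genes for hydrogel CT and GF against SCI only and between hydrogels, with 1, 1 and 0 members. Within FT it called 57 and 79 genes against SCI only, with 1 member each. DESeq2 size factors gave 79 genes and 0 members for hydrogel CT fractions, 0 genes for the difference hydrogel GF minus SCI only, 0 between hydrogels in HA, and 6 and 6 in FT against SCI only. Protein-coding genes without Lars2 gave 0 members for hydrogel CT fractions, 6 genes for the difference hydrogel GF minus SCI only, and 4, 67 and 0 within HA. Without a filter, 69 genes were called for hydrogel GF against SCI only in HA, and 149 and 174 in FT. With the compared groups alone, 113, 5 and 0 genes were called in HA, and 209 genes with 1 member for hydrogel CT against SCI only in FT; for hydrogel GF against SCI only, Xylt1 in HA and Ptprz1 in FT did not pass the filter and have no value.

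With the title number as a replicate block, 874 genes were called between fractions, 767 of them shared with the 867, and 25 and 1 for the differences hydrogel GF minus SCI only and minus hydrogel CT. Ptprz1 with SCI only was the single member call the block changed. Signs changed for the difference hydrogel GF minus hydrogel CT of Cspg5 (-0.28 with the replicate block, -0.053 with DESeq2 and -0.054 with its size factors), for hydrogel GF minus SCI only of Ptprz1 (-0.48 and -0.47 with these) and for Cspg5 in HA, hydrogel CT against SCI only (0.0058 without a filter).

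Leaving out 1 number at a time, between fractions 40 to 295 genes and 1 to 3 members were called for SCI only, 8 to 247 and 0 to 2 for hydrogel CT, 243 to 596 and 1 to 3 for hydrogel GF, and 0 to 11 genes for the difference hydrogel GF minus SCI only. Within HA the counts were 3 to 29, 2 to 127 and 0 to 13 genes, and within FT 4 to 34 and 9 to 36 against SCI only. The difference hydrogel GF minus hydrogel CT ran from -0.25 to 1.06 for Bcan, -0.41 to 0.90 for Cspg5 and -0.25 to 1.55 for Ptprz1. For Ptprz1, hydrogel CT minus SCI only ran from -1.27 to 0.58, hydrogel GF minus SCI only from -0.40 to 0.92, and hydrogel GF against hydrogel CT from -0.65 to 0.14 in HA and -1.11 to 0.20 in FT. Cspg5 in HA ran from -0.38 to 0.15 for hydrogel CT against SCI only.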
